A study of Homo sapiens with 3 samples.

Results

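The BCL2 family is described here through 10 genes that control the mitochondrial pathway of apoptosis, namely BCL2, BCL2L1, MCL1, BCL2A1, BAX, BAK1, BCL2L11, BBC3, PMAIP1 and BID. They were chosen by gene symbol as a family, with earlier results of these data known. They are 10 of the 16149 genes listed in at least 1 library. The samples were 3 cultures of human hepatocellular carcinoma (HCC) cells grown in DMEM, with 1 mRNA sequencing library each. All carry the label HCCLM3, a metastatic HCC line, while the study names its parental line HCCLM3-R, a derivative that expresses red fluorescent protein. The parent is labelled as weakly metastatic in the data, although the methods of the study give HCCLM3-R a high metastatic potential. Subclone 1 is labelled as more metastatic with the lung as its target, and subclone 2 as metastatic to lung and celiac lymph node. In the study, subclones were grown from single cells of metastases in nude mice, so each stands for 1 clone, and the sources used here do not match the sequenced subclones to clone names.

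Proteins of this family decide whether the outer membrane of mitochondria is opened. BAX and BAK1 form the pores that let cytochrome c out, BCL2, BCL2L1 (BCL-XL), MCL1 and BCL2A1 (BFL-1) hold them in check, and the BH3-only proteins BCL2L11 (BIM), BBC3 (PUMA), PMAIP1 (NOXA) and BID carry stress signals to both groups. Hepatocytes depend on BCL-XL and MCL1 for survival. Several of the genes are spliced into forms of different or opposite function and their proteins are also controlled by degradation, neither of which a level per gene can show.

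Levels are RPKM, reads scaled to the length of the gene and the depth of the library, as deposited by the authors, and unnamed series of 3 values run parent, subclone 1, subclone 2. The whole reads behind the values could be recovered, with library totals of 4488825, 4609696 and 4725150 reads. The 95% intervals are exact Poisson intervals of these reads for a level and exact Clopper-Pearson intervals for a fold. They cover counting error only, and PCR copies of a molecule were not told apart. No cell line had a replicate, so nothing was tested between cell lines, and "higher" or "lower" below compares libraries. Log2 ratios were taken of RPKM + 0.1, which understates changes at low RPKM. Of the 10 genes, 8 had a mean of at least 1 RPKM over the 3 libraries, and BCL2 and BCL2A1 did not. The same limit was met by 11370 of all genes, which serve as background.

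As a check of the labelled cell type, 10 of 11 hepatocyte markers were listed in at least 1 library, and APOA2 was not. A mean of at least 1 RPKM was reached by 7 of them. APOA1 had 1, 3 and 2 reads and SERPINA1 1, 4 and 1. The summed level of the hepatocyte markers was 54.6, 149 and 139 RPKM, of which APOH gave 30.0, 36.6 and 33.6. Albumin (ALB) had 2.46, 49.5 and 68.8 RPKM, while TTR had no read in the parent and in subclone 1. Of 10 leukocyte markers 8 were listed, with a summed level of 78.7, 119 and 104 RPKM, of which CD68 alone, a lysosomal protein gene also active in other cells, gave 75.3, 112 and 99.6. PTPRC (CD45) had 1 read in the parent and no read in the subclones, and CD3E and MS4A1 were not listed. Fibroblast markers summed to 15.7, 31.2 and 24.3 RPKM, with 4 of 10 not listed and 3 above a mean of 1 RPKM. LUM had 48, 117 and 105 reads and DCN 8, 47 and 30, and both were at least 2-fold higher by RPKM in each subclone than in the parent, while COL3A1 went the other way with 4.42, 2.21 and 0.463 RPKM. COL1A2 had 1, 1 and 0 reads. Endothelial markers, 5 of 6 listed, summed to 5.11, 11.9 and 7.61 RPKM. PECAM1 was highest in subclone 1, with 3.33, 9.81 and 4.46 RPKM, and KDR in subclone 2, with 1.36, 1.93 and 3.08, while CDH5 had 0, 1 and 0 reads. The part of such cells in the values below was not tested.

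The antiapoptotic side of the family consisted almost wholly of MCL1 and BCL2L1 in all 3 libraries. MCL1, a short-lived guardian that binds BIM and NOXA, was the most abundant of the 10 mRNAs. Its level was 107 RPKM in the parent (102 to 111, 1965 reads), 98.8 in subclone 1 (94.4 to 103, 1871 reads) and 110 in subclone 2 (105 to 115, 2135 reads). It made up 37.2%, 34.9% and 34.6% of the summed RPKM of the 10 genes. Subclone 1 was thus the lowest library for MCL1, but by little. The fold was 0.927 over the parent (0.870 to 0.988, a call lost when the libraries are scaled by their upper quartile), and subclone 2 exceeded subclone 1 by 1.11-fold (1.05 to 1.19). Subclone 2 was at 1.03 times the parent (0.970 to 1.10), a difference not detectable at this depth.

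BCL2L1, whose long product BCL-XL protects hepatocytes, was lower in subclone 1 alone. The mRNA had 58.8 RPKM in the parent (54.5 to 63.4, 680 reads), 42.5 in subclone 1 (38.9 to 46.4, 505 reads) and 57.3 in subclone 2 (53.1 to 61.7, 697 reads). The interval of subclone 1 lay below those of the other libraries, which overlapped each other. In subclone 1 the fold over the parent was 0.723 (0.643 to 0.813), or -0.47 on the log2 scale, which is percentile 11.2 of all genes. Subclone 2 was at 0.974 times the parent (0.875 to 1.08) and 1.35 times subclone 1 (1.20 to 1.51).

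The other antiapoptotic genes were close to the limit of detection. BCL2, the founding member of the family, had a single read in subclone 1 (0.0334 RPKM) and none in the parent and subclone 2. By the Poisson interval, a count of 0 there allows up to 0.127 and 0.120 RPKM. BCL2A1, a gene best known from blood cells and as an NF-kB target, had 1 read in the parent (0.233 RPKM) and 1 read in subclone 1 (0.227 RPKM). It had none in subclone 2, which allows up to 0.817 RPKM. No fold is given for either gene, since all their libraries were under 3 reads. On the scale of RPKM, MCL1 and BCL2L1 therefore stood more than 2 orders of magnitude above BCL2.

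**Figure D1:**
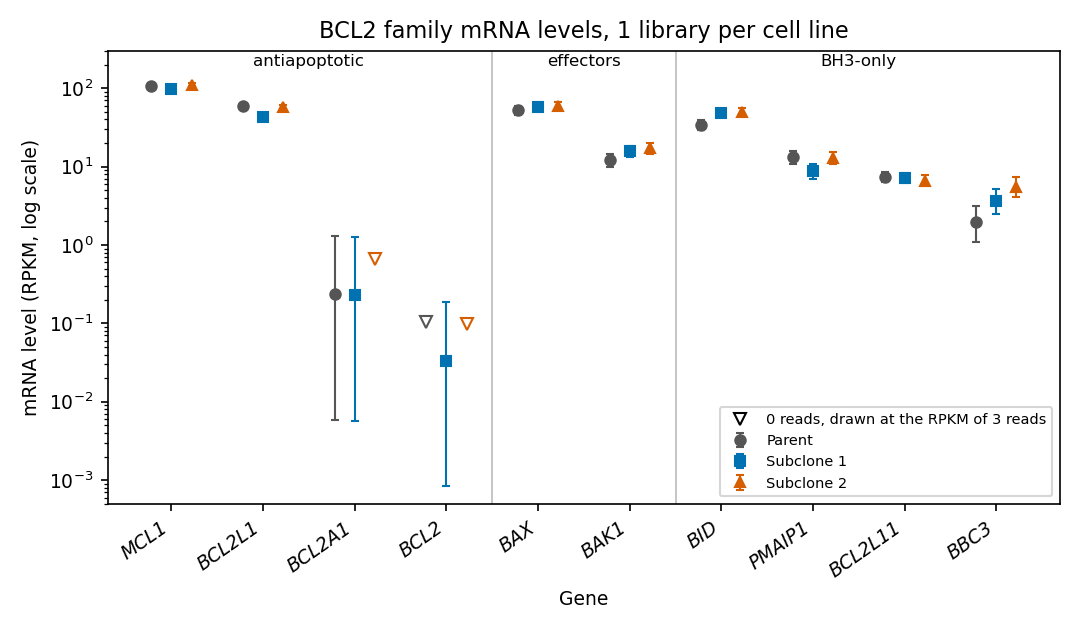
mRNA level of the 10 BCL2 family genes in RPKM (log axis) in the parent, subclone 1 and subclone 2, 1 library each, with exact Poisson 95% intervals of the reads as bars and open triangles at the RPKM of 3 reads where a library had none. MCL1 lies near 100 RPKM in all libraries, BCL2 and BCL2A1 rest on at most 1 read, and BBC3 goes from 1.93 RPKM in the parent to 5.51 RPKM in subclone 2.

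The pore-forming effectors were both expressed, BAX above BAK1. BAX had 52.0 RPKM in the parent (45.5 to 59.1, 230 reads), 58.3 in subclone 1 (51.5 to 65.8, 265 reads) and 59.2 in subclone 2 (52.5 to 66.7, 276 reads). All 3 intervals overlapped. The folds over the parent, 1.12 in subclone 1 (0.937 to 1.34) and 1.14 in subclone 2 (0.954 to 1.36), did not leave counting error. For BAX a gene length of 1972 bases in place of 986 was also in the allowed range, though its longest transcript has 1358. The reads would then be larger and the intervals narrower, and the folds were not recomputed for that length. BAK1, which sits in the mitochondrial membrane already before a death signal, had 12.0 RPKM in the parent (9.97 to 14.4, 119 reads), 15.7 in subclone 1 (13.3 to 18.3, 159 reads) and 17.0 in subclone 2 (14.6 to 19.7, 177 reads). The parent was the lowest library. BAK1 was 1.30-fold higher in subclone 1 (1.02 to 1.66) and 1.41-fold higher in subclone 2 (1.11 to 1.80), and 1.09-fold between the subclones (0.872 to 1.35). With division by ACTB or GAPDH the interval for subclone 1 spans 1. The annotation also holds 2 pseudogenes of BAK1, whose reads could be counted with it.

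Among the BH3-only genes, BBC3 differed most. BBC3 encodes PUMA, which binds all antiapoptotic members. The mRNA stood at 1.93 RPKM in the parent (1.11 to 3.14, 16 reads), 3.65 in subclone 1 (2.48 to 5.18, 31 reads) and 5.51 in subclone 2 (4.06 to 7.31, 48 reads). The parent was the lowest and subclone 2 the highest library, and their intervals did not overlap, while that of subclone 1 overlapped both. In subclone 2 the fold over the parent was 2.85 (1.59 to 5.38), or 1.46 on the log2 scale (percentile 97.4). In subclone 1 it was 1.89 (1.00 to 3.69), or 0.88 on the log2 scale (percentile 93.8), with a lower bound that falls under 1 when the libraries are rescaled to the same sum. The subclones differed by 1.51-fold (0.942 to 2.45), which counting error covers. Despite this, BBC3 remained the least abundant of the 8 genes above 1 RPKM in every library, and its interval in subclone 2 overlapped that of BCL2L11.

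PMAIP1 encodes NOXA, the partner that sends MCL1 to degradation. Its level was 13.1 RPKM in the parent (10.8 to 15.7, 115 reads), 8.77 in subclone 1 (6.94 to 10.9, 79 reads) and 12.9 in subclone 2 (10.7 to 15.4, 119 reads). Like BCL2L1, PMAIP1 was lowest in subclone 1, with a fold over the parent of 0.669 (0.496 to 0.899), or -0.57 on the log2 scale (percentile 7.70). Subclone 2 stood at 0.983 times the parent (0.754 to 1.28) and 1.47 times subclone 1 (1.10 to 1.98). The parent and subclone 2 could thus not be told apart at this depth.

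BID links death receptors to mitochondria once caspase-8 has cut it. Its mRNA stood at 34.1 RPKM in the parent (29.5 to 39.3, 192 reads), 47.8 in subclone 1 (42.3 to 53.8, 276 reads) and 49.2 in subclone 2 (43.7 to 55.1, 291 reads). The intervals of both subclones lay above that of the parent. The folds were 1.40 (1.16 to 1.69) and 1.44 (1.20 to 1.74), and the subclones could not be told apart at this depth (1.03, 0.869 to 1.22). For BID a gene length of 2506 bases in place of 1253 would also give whole reads and lies near the longest transcript. The reads would then be larger and the intervals narrower. BCL2L11, which encodes the activator BIM, had 7.44 RPKM in the parent (6.38 to 8.63, 175 reads), 7.16 in subclone 1 (6.14 to 8.32, 173 reads) and 6.63 in subclone 2 (5.65 to 7.72, 164 reads). Its intervals overlapped in all libraries, and the fold of subclone 2 over the parent was 0.890 (0.715 to 1.11).

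The sequences upstream of BBC3, PMAIP1 and BCL2L1 are shown because BBC3 had the largest ratio of the 10 genes, and PMAIP1 and BCL2L1 were below the parent in subclone 1. MCL1, also below the parent there, had no window in the table used. They are the 250 bases before the gene start in RefSeq on GRCh38.p14, read 5′ to 3′ on the strand of the gene. They lie on the minus strand at chr19:47232668-47232917 for BBC3, on the plus strand at chr18:59899746-59899995 for PMAIP1 and on the minus strand at chr20:31723964-31724213 for BCL2L1, the first of 2 windows listed for this gene. Capitals mark matches on either strand to any of 4 motifs. The GC box was searched as GGGCGG. The CCAAT box was searched by the letters of its name. The cAMP response element was searched as TGACGTCA. The TATA box was searched as TATAAA, and no motif overlaps another.
BBC3: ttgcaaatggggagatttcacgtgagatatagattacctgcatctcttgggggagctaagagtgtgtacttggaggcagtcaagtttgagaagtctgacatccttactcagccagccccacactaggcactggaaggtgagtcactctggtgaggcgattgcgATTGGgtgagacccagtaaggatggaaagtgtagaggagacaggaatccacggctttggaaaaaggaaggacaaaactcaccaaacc
PMAIP1: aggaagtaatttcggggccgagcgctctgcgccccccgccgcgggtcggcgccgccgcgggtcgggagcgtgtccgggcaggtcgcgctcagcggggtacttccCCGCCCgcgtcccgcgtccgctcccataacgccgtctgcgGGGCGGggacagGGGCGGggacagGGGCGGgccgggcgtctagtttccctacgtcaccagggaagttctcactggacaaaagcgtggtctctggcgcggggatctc
BCL2L1: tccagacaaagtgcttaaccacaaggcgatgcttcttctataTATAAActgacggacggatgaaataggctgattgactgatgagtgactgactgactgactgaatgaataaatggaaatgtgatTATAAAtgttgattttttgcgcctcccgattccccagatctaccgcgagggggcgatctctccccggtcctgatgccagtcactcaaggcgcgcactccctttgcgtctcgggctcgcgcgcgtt
The BBC3 window holds 1 CCAAT box match and no GC box match, and that of PMAIP1 holds 4 GC box matches. That of BCL2L1 holds 2 TATA box matches and neither of the former. The TATA box matches begin 208 and 125 bases before the gene start. All of these are matches of letters only, and their function was not tested. No cAMP response element matched in these windows. Of 35116 windows in the table, 42.6% hold a GC box, 32.0% a CCAAT box, 10.7% a TATA box and 1.65% the cAMP response element. The content of G and C was 49.2% in BBC3, 72.8% in PMAIP1 and 50.0% in BCL2L1, against a median of 58.0% over all windows.

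Set against all genes, most differences in the family were small in size. In subclone 2, 1 of the 8 genes (BBC3) differed at least 2-fold from the parent, where 7.49% of the 11370 genes did. It was among the 5.33% that were higher, and none was among the 2.16% that were lower. In subclone 1 none of the 8 differed 2-fold from the parent (6.72% of all genes, 4.90% higher and 1.82% lower), nor did any between the subclones (2.81% of all, 1.42% higher and 1.39% lower in subclone 2). By the wider rule that the counting interval of the fold excludes 1, 3 of 8 were higher in subclone 1 than in the parent (BAK1, BBC3 and BID) and 3 lower (MCL1, BCL2L1 and PMAIP1), against 19.8% and 18.8% (38.6% in all) of 11149 genes with reads. In subclone 2, BAK1, BBC3 and BID were again higher than in the parent (22.7% of all genes) and none was lower (17.7%, 40.4% in either direction). Subclone 2 exceeded subclone 1 in MCL1, BCL2L1 and PMAIP1 (11.3% of all genes) and was below it in none (8.30%, 19.6% in either direction). An interval narrows with the reads of a gene, so genes with many reads are called at smaller folds, as MCL1 was at 0.927. The background was not matched for reads, so these shares are no measure of how unusual the family is. The comparisons share libraries, so these lists are not independent of each other. The median log2 ratio of the 8 genes was 0.06 in subclone 1 over the parent, 0.12 in subclone 2 over the parent and 0.14 in subclone 2 over subclone 1, where those of all genes were 0.0043, 0.04 and 0.03. At the gene lengths taken, BAX and BCL2L11 were the members whose intervals spanned 1 in all 3 comparisons.

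**Figure D2:**
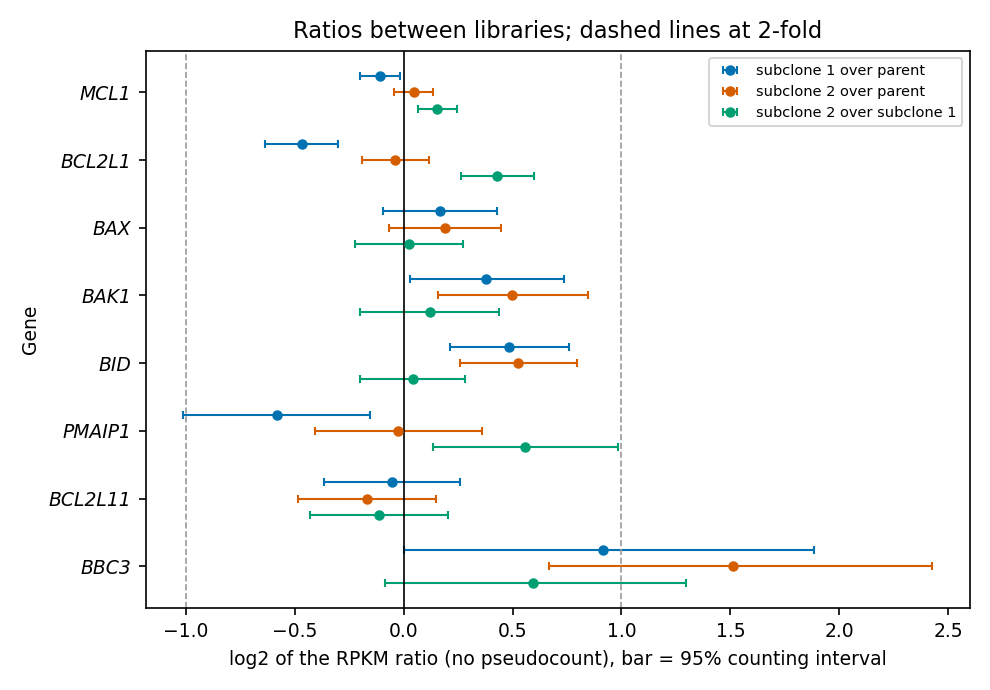
Log2 of the RPKM ratio (no pseudocount) of the 8 BCL2 family genes above 1 RPKM between libraries, with exact Clopper-Pearson 95% counting intervals as bars and dashed lines at 2-fold. MCL1, BCL2L1 and PMAIP1 have intervals wholly left of 0 for subclone 1 over the parent and for no other comparison, BAK1 and BID lie right of 0 for both subclones, and BBC3 passes the 2-fold line in subclone 2.

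**Figure D3:**
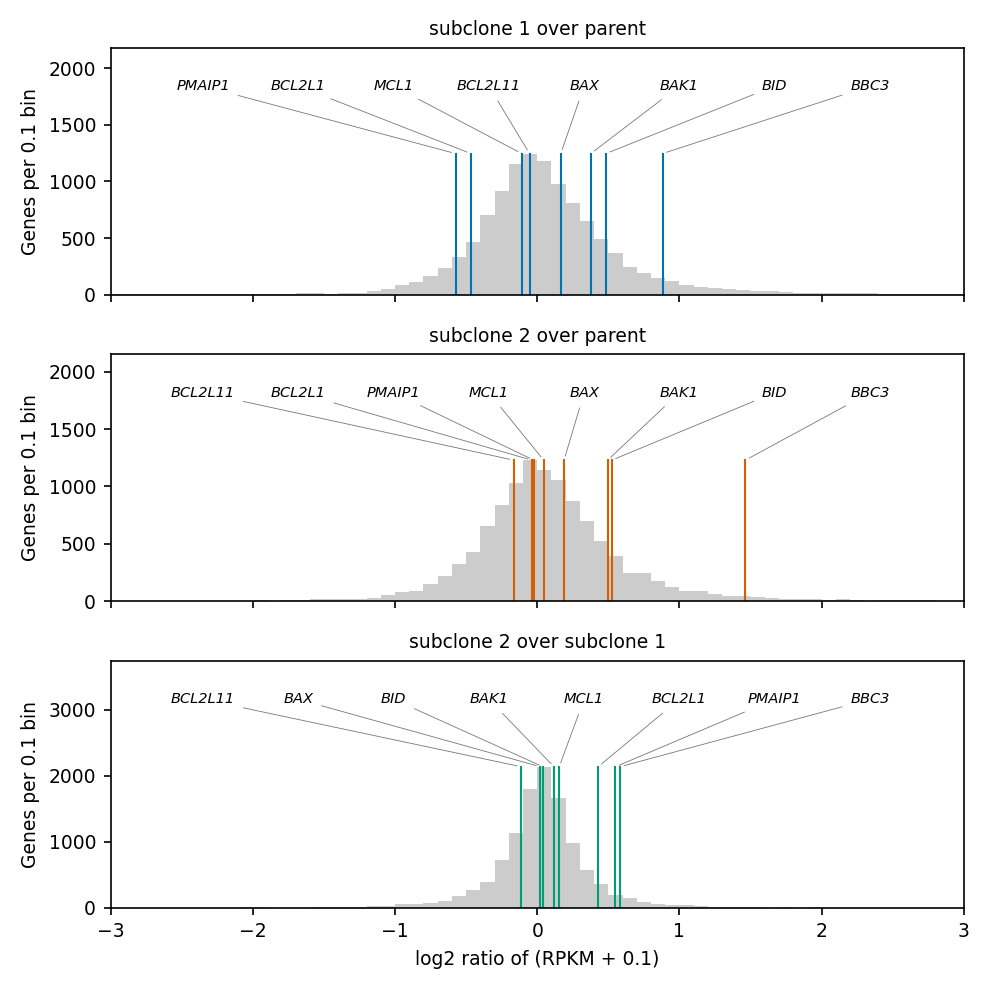
Distribution of log2 ratios of (RPKM + 0.1) over the 11370 genes with a mean of at least 1 RPKM (grey bars, genes per bin of 0.1) for the 3 comparisons, with the 8 BCL2 family genes as lines. Most lines fall in the bulk of the grey distribution, and BBC3 stands at percentile 97.4 in subclone 2 over the parent.

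RPKM is scaled to 1 length per gene, so an order of levels across genes also rests on the lengths used. For BID that length was 1253 bases, where the longest transcript has 2495, and for BAX 986 against 1358. The intervals cover counting error only. In the parent the order ran from MCL1 over BCL2L1, BAX, BID, PMAIP1, BAK1 and BCL2L11 to BBC3. The intervals of BCL2L1 and BAX and those of PMAIP1 and BAK1 overlapped, so these neighbours were not separated. In subclone 1, BCL2L1 was the fourth in order, after BAX and BID, and its interval overlapped that of BID. There BAK1 stood above PMAIP1 without overlap, and PMAIP1 overlapped BCL2L11. In subclone 2, BAX, BCL2L1 and BID followed each other with overlapping neighbours, as did BAK1 and PMAIP1.

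By role, the summed antiapoptotic level was 166, 142 and 167 RPKM. The effectors summed to 64.0, 74.0 and 76.2 RPKM and the BH3-only genes to 56.6, 67.4 and 74.2 RPKM. The ratio of antiapoptotic to effector mRNA was therefore 2.59, 1.91 and 2.19, and that of antiapoptotic to BH3-only mRNA was 2.93, 2.10 and 2.26. In both ratios the parent was highest and subclone 1 lowest, and the same order held without the highest gene of each group (4.91, 2.73 and 3.37 for the first ratio and 2.63, 2.19 and 2.29 for the second). Without the highest genes the first ratio was almost that of BCL2L1 to BAK1 alone. These ratios describe mRNA and have no replicate. No counting interval was computed for them, so their order was not tested.

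The genes most like BBC3 over the 3 libraries, by the distance between their pairs of log2 ratios over the parent, were GPR35 (distance 0.0060), C4orf19 (0.035) and LIME1 (0.049). GPR35 had 1.85, 3.50 and 5.26 RPKM, C4orf19 had 8.55, 15.8 and 23.2, and LIME1 had 0.924, 1.80 and 2.63. In all, 38 genes lay within a distance of 0.2 of BBC3, and 3 libraries give 2 ratios only.

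Other genes of the BCL2 family differed from the parent by less than 2-fold. Of 15 further genes, 12 had at least 1 RPKM, and none was 2-fold different between the subclones either. Over all genes, 6.72% and 7.49% differed 2-fold from the parent in subclone 1 and subclone 2, and 2.81% between the subclones. BCL2L10, HRK and BCL2L14 were not listed. The median log2 ratio was 0.18 in subclone 1 and 0.24 in subclone 2 over the parent. By counting interval, 4 of 12 were higher and none lower in subclone 1 (19.8% and 18.8% of all genes), and 3 higher and 1 lower in subclone 2 (22.7% and 17.7% of all genes). The largest folds were those of BNIP1 in subclone 1 (1.78, 1.05 to 3.10) and BCL2L15 in subclone 2 (1.74, 1.36 to 2.24). BNIP3L, a receptor for the removal of mitochondria, had 28.5, 43.0 and 39.2 RPKM, with folds over the parent of 1.51 (1.21 to 1.89) and 1.38 (1.10 to 1.73). BOK, a BAX-like effector, differed in direction, with 11.8, 15.9 and 8.90 RPKM and folds over the parent of 1.35 (1.08 to 1.69) and 0.752 (0.580 to 0.972). Neither call of BOK holds under all rescalings. In subclone 1 its lower log2 bound was 0.105, and division by ACTB moves the ratios by -0.132. In subclone 2 its upper log2 bound was -0.0403, and division by GAPDH moves the ratios by 0.0630. The BNIP1 call in subclone 1, with a lower log2 bound of 0.0638, is also lost with ACTB. BNIP3, the highest of this list, had 55.7, 65.0 and 57.6 RPKM.

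Downstream of the pore, 10 genes of mitochondrial release and the apoptosome all passed 1 RPKM and none was 2-fold different. Their median log2 ratios over the parent were -0.02 and 0.02. VDAC1, a channel of the outer membrane and the highest of them, had 166, 164 and 161 RPKM. APAF1, the scaffold of the apoptosome, had 4.95, 6.50 and 8.58 RPKM, with a fold of 1.73 for subclone 2 over the parent (1.16 to 2.62). It was the only one of the 10 with an interval above 1 over the parent, and 2 had intervals below 1 in both subclones. These were CYCS, the gene of cytochrome c, at 0.832 (0.778 to 0.891) and 0.878 (0.821 to 0.938) times the parent, and VDAC3 at 0.853 (0.736 to 0.990) and 0.815 (0.702 to 0.946). For VDAC3 in subclone 1 the upper bound was -0.0151 on the log2 scale. Scaling the libraries by their upper quartile moves that comparison by 0.0214, so the call is lost. Of the 10 caspases, 7 had at least 1 RPKM and none was 2-fold different. By counting interval 1 of 7 was higher and 1 lower in subclone 1, and 3 were higher and 2 lower in subclone 2. Over all genes, for comparison with both lists, 19.8% were higher and 18.8% lower in subclone 1. In subclone 2 these shares were 22.7% and 17.7%. By the 2-fold rule, 6.72% and 7.49% of all genes differed from the parent in subclone 1 and subclone 2, and 2.81% between the subclones. CASP4, an inflammatory caspase and the highest of them by RPKM, had 34.9, 45.2 and 44.0 RPKM. CASP8, the enzyme that cuts BID, was lower in both subclones while BID was higher. It had 30.4, 25.9 and 19.4 RPKM, with folds of 0.852 (0.736 to 0.986) and 0.640 (0.546 to 0.748). In subclone 1 the upper bound of CASP8 was -0.0202 on the log2 scale, so that call is also lost with the upper quartile.

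Larger differences were seen among the inhibitor of apoptosis proteins, 6 of 7 of which had at least 1 RPKM. At least 2-fold higher than the parent were 2 of 6 in subclone 1 and 1 of 6 in subclone 2. Over all genes these shares were 4.90% and 5.33%. Between the subclones, 1 of 6 was 2-fold lower in subclone 2 (1.39% of all genes). BIRC3 (cIAP2), a ubiquitin ligase and NF-kB target, had 8.97 RPKM in the parent (7.80 to 10.3, 211 reads), 30.8 in subclone 1 (28.7 to 33.1, 745 reads) and 39.2 in subclone 2 (36.7 to 41.7, 970 reads). The folds over the parent were 3.44 (2.95 to 4.03) and 4.37 (3.76 to 5.09). BIRC7 (livin) was high in subclone 1 alone, with 1.35 RPKM in the parent (8 reads), 9.03 in subclone 1 (55 reads) and 2.08 in subclone 2 (13 reads). Its fold in subclone 1 over the parent was 6.69 (3.17 to 16.3), and subclone 2 was at 0.231 times subclone 1 (0.116 to 0.428). BIRC6 was at 0.752 times the parent in subclone 2 (0.666 to 0.849) and BIRC5 at 1.19 times (1.04 to 1.37). XIAP and BIRC2 had intervals of the fold that spanned 1 in all comparisons. The median log2 ratio of the list was 0.09 in subclone 1 and 0.19 in subclone 2 over the parent.

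Of the 10 genes of death receptor signalling, 9 had at least 1 RPKM and none was 2-fold different. That rule was met by 6.72% and 7.49% of all genes in subclone 1 and subclone 2 over the parent, and by 2.81% between the subclones. Over the parent, the median log2 ratio reached 0.28 and 0.42 in the subclones, against 0.0043 and 0.04 for all genes. TNFRSF1A, the TNF receptor and the highest of the list, had 190, 231 and 255 RPKM. TNFRSF10B, the TRAIL receptor DR5, had 27.0, 38.5 and 43.2 RPKM, with folds over the parent of 1.42 (1.27 to 1.60) and 1.60 (1.43 to 1.79). FADD, the adaptor between receptor and caspase-8, had 20.3, 26.9 and 29.8 RPKM. These 3 of 9 genes had counting intervals above 1 in both subclones. Taking each subclone alone, 19.8% of all genes did in subclone 1 and 22.7% in subclone 2. The share of all genes above 1 in both was not computed. TNFRSF10A, the TRAIL receptor DR4, was lower in subclone 1 (0.687, 0.486 to 0.968) and RIPK1, a kinase of the receptor complex, in subclone 2 (0.718, 0.578 to 0.891). Each was 1 of 9 in its subclone, where 18.8% and 17.7% of all genes were lower in subclone 1 and subclone 2. FAS, the remaining gene, stayed below 1 RPKM on average.

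CDKN1A, which encodes the cell cycle inhibitor p21, passed 2-fold in subclone 2 over the parent, where 5.33% of all genes were at least 2-fold higher. The other genes of its list are not reported here. Its level was 20.0 RPKM in the parent (17.4 to 22.9, 209 reads), 39.2 in subclone 1 (35.5 to 43.1, 420 reads) and 55.8 in subclone 2 (51.5 to 60.4, 614 reads). No intervals overlapped. The folds over the parent were 1.96 (1.65 to 2.32) and 2.79 (2.38 to 3.28).

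**Figure D4:**
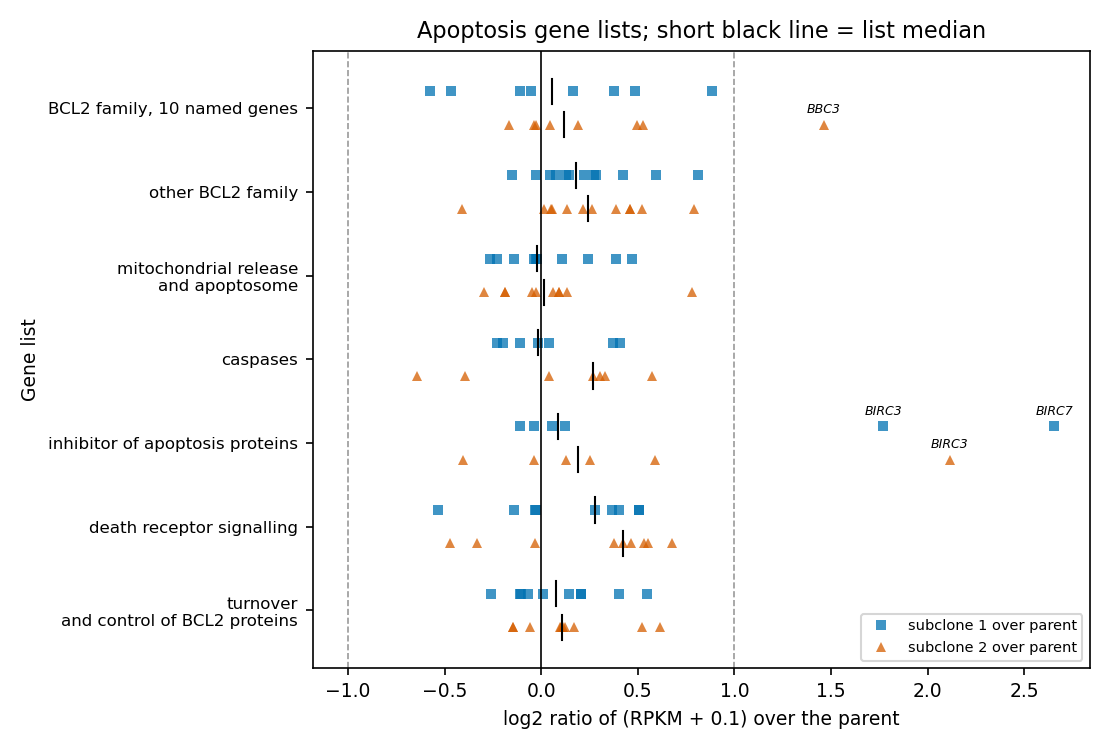
Log2 ratios of (RPKM + 0.1) over the parent for the genes of 7 apoptosis lists with a mean of at least 1 RPKM, squares for subclone 1 and triangles for subclone 2, with a short black line at the median of each list and dashed lines at 2-fold. Beyond 2-fold lie BBC3 in subclone 2, BIRC3 in both subclones and BIRC7 in subclone 1.

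Positions in the annotation of GRCh38 are given for 5 of the 10 family genes, those with the largest folds between libraries, while the deposited values were made on hg19. BBC3 (minus strand) spans 47220822 to 47232766 of chromosome 19 and overlaps the microRNA genes MIR3190 and MIR3191. BCL2L1 (minus strand) spans 31664452 to 31723989 of chromosome 20, with ABALON and AL117381.1 on the opposite strand. PMAIP1 (plus strand) spans 59899948 to 59904306 of chromosome 18, with no overlapping gene. BID (minus strand) spans 17734138 to 17774770 of chromosome 22 and overlaps MIR3198-1. BAK1 (minus strand) spans 33572547 to 33580293 of chromosome 6, with GGNBP1 opposite to it. The handling of strand is not given in the sources used here, so reads of opposite genes cannot be told apart.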

How the data were processed

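RNA of the 3 cultures was isolated with Trizol, and TruSeq libraries were sequenced. The files deposited by the authors hold RPKM, an Entrez number and a symbol for each gene above 0. The submitters' processing notes name hg19. Aligner, counting tool, annotation and strand handling are not given in the sources used here. Genes not listed in a library counted as 0.

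Whole reads were recovered from the RPKM. The totals of the subclones relative to the parent were read from 376 and 328 genes whose reads were equal. Of 4 candidate totals for the parent, the one taken put 48% of low values within 10% of a GENCODE release 29 transcript length, against 27.5% for the next, although it gave the lowest share of whole lengths (72.2%, against 80.8% to 88.8%). All reads and counting intervals rest on this choice. The smallest length with whole reads (tolerance 0.03) between 0.5 times the median and 1.5 times the longest transcript was taken, so reads can be understated. Reads were found for 98.1% of the 11370 genes that passed a mean of 1 RPKM. The recovery of totals and reads was tested on simulated data built from the recovered lengths and reads. The simulation searched only near the total taken, so it did not test the choice among the 4 candidates.

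With 1 library a group no test was made. The members and lists were chosen with earlier results of these data known. The text names all 10 members, every gene of the other apoptosis lists beyond 2-fold and the highest of each list. BNIP1, BNIP3L, BCL2L15, BOK, APAF1, CYCS, VDAC3, CASP8, XIAP, BIRC2, BIRC5, BIRC6, TNFRSF10A, TNFRSF10B, FADD, RIPK1, FAS, FOXO3, HUWE1, USP9X and the marker genes were named after their values were seen. Alternatives were pseudocounts of 0.01 and 1, 5 rescalings, no filter, a mean of 5 RPKM, 1.5-fold, and sums without the highest gene. RefSeq windows matched 9 of 10 members. A list of 12 genes of turnover and control of BCL2 proteins is given at the end, and 1 further list, from which CDKN1A was named by the rule, is not reported here. Python 3.11.15, numpy 2.4.6, pandas 2.3.3, scipy 1.17.1 and matplotlib 3.10.9 were used.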

Additional observations from a re-analysis of the deposited data

Results flagged for a closer look

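MCL1 was below the parent in subclone 1, with a log2 ratio of -0.11, and above it in subclone 2, with a log2 ratio of 0.05. It was singled out because the 2 subclones lay on opposite sides of the parent. With a single library for each line, the difference was not tested. The ratio in subclone 2 was within counting error.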

How the results depend on the processing

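Of 168 values of the member ratios under 7 alternatives, 165 stayed within the counting interval. The exceptions were MCL1 with division by ACTB, -0.24 in subclone 1 over the parent and 0.28 in subclone 2 over subclone 1, and with division by GAPDH, 0.27 in the latter. In 6 values the sign changed, all of ratios whose counting interval spanned 1. BBC3 lay between 1.15 and 1.53 for subclone 2 over the parent.

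The 2-fold counts followed the filter, pseudocount and threshold by construction. Members 2-fold higher, for subclone 2 over the parent, went from 1 to 0 with a mean RPKM of at least 5, which removes BBC3, and those 2-fold lower from 0 to 1 with no filter, in subclone 2 over the parent and over subclone 1, which adds BCL2A1 with 1 read in each of the libraries compared with. At 1.5-fold, 1 member (BBC3) was higher in subclone 1. Genes 2-fold different numbered 464, 530 and 157 with a pseudocount of 1 for subclone 1 over the parent, subclone 2 over the parent and subclone 2 over subclone 1, 2407, 2494 and 1744 with no filter, 304, 346 and 89 at a mean RPKM of at least 5, and 2165, 2274 and 1007 at 1.5-fold, against 764, 852 and 319. Division by ACTB moved the share of higher genes in subclone 1 over the parent from 72.9% to 57.8% and 1.5-fold to 60.8%, and ACTB and GAPDH moved that in subclone 2 over subclone 1 from 50.5% to 64.0% and 62.6%. The median of all genes moved to -0.13 with ACTB in the first of these comparisons and to 0.16 and 0.15 in the latter. Without the highest gene of each group, the ratio of antiapoptotic to BH3-only mRNA in the parent was 2.63.

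The counting-interval calls of the family members were rescaled after the data were seen. Of the other genes, only VDAC3, CASP8, BOK and BNIP1 had the same shifts set beside their bounds. Members above the parent in subclone 1 went from 3 to 1 (BID) with division by ACTB or by GAPDH, which moved the log2 ratio by -0.13 and -0.05. BBC3 was also lost there with libraries rescaled to the same sum or centred on the median, MCL1 was lost from the lower ones with the upper quartile, MCL1 was gained in subclone 2 over the parent with GAPDH, and BBC3 was gained in subclone 2 over subclone 1 with ACTB or GAPDH. No paired analysis was possible because each line has 1 library, and none was left out. Depth limits BBC3 most, with 16 reads in the parent.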

Other observations

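Among 12 symbols for turnover and control of BCL2 proteins, 10 were listed, all above 1 RPKM, and none was 2-fold different. Over all genes, 6.72% and 7.49% were so in subclone 1 and subclone 2 against the parent, and 2.81% between the subclones. ATF4, a stress transcription factor and the highest of them, had 101, 117 and 145 RPKM in the order parent, subclone 1, subclone 2. FOXO3, a transcription factor with BCL2L11 and BBC3 among its targets, had 3.49, 5.14 and 5.39 RPKM, with folds over the parent of 1.47 (1.16 to 1.88) and 1.54 (1.22 to 1.97). HUWE1 and USP9X, which add ubiquitin to MCL1 and remove it, had 54.1, 50.3 and 48.8 RPKM and 45.3, 52.3 and 48.9 RPKM. The folds of HUWE1 over the parent were 0.931 and 0.903 and those of USP9X were 1.15 and 1.08. The median log2 ratio of the list was 0.08 in subclone 1 and 0.11 in subclone 2.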
